A study of Mus musculus with 9 samples.

Results

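The comparison was between livers of mice given acetaminophen (N-acetyl-para-aminophenol, APAP) alone and livers of mice given saline. It was read from the deposited counts of microRNAs (miRNAs), and its members were chosen by their labels only, as the 3 libraries titled Control and the 3 titled APAP, which are 6 of the 9 libraries of the series. All mice were wild-type C57 BL6, 8 weeks old and about 20 g in weight. The Control mice received saline. The APAP mice received 500 mg/kg APAP by intraperitoneal injection, and livers were taken 6 h after it. The other 3 libraries came from mice given 300 µg/kg dmPGE2, a stabilised analogue of prostaglandin E2, 1 h before an equal dose of APAP. They entered the merging and filtering of rows, the scaling and the estimate of the spread, but not the means that were compared. Whether each library was a different mouse is not stated in the labels, so the p-values speak only of the spread among these libraries, part of which may be technical.

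APAP is converted in hepatocytes to a reactive quinone imine that consumes glutathione and binds proteins, and an overdose kills the hepatocytes around the central veins. A miRNA is cut from an RNA hairpin, and its 2 arms, named 5p and 3p, can each be loaded into an Argonaute protein, usually one far more often than the other. Bases 2 to 8 of the loaded strand, the seed, pair with target messenger RNAs. In liver, miR-122 is the hepatocyte's own abundant miRNA, and whole tissue also carries the miRNAs of its blood, vessels, stellate cells and immune cells.

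The table held 946 miRNA rows. Rows that repeated the reads of another row, such as miR-122b-3p beside miR-122-5p, were counted once, which left 930 distinct rows. Of these, 341 had enough reads to be tested and 589 did not. The untested rows held between 0.0108% and 0.0174% of a library's reads.

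The following mature sequences are shown because they belong to the miRNAs on which the comparison turned. They were taken from RefSeq for the mouse build GRCm38.p6, are written 5′ to 3′, and have the seed in capitals. The table's names matched a RefSeq mature sequence for 795 of the 946 rows. The first 4 are the miRNAs past the threshold that had a match.
miR-503-5p: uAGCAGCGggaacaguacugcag
miR-6481: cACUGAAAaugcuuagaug
miR-21a-3p: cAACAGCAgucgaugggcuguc
miR-451a: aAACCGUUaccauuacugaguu
The next 2 are the other arms of the miR-21a and miR-503 hairpins, shown because the ratio of the arms was compared in these hairpins.
miR-21a-5p: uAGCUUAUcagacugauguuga
miR-503-3p: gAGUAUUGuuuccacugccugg
The last 6 are those with the lowest p among miRNAs of at least 10 CPM that did not pass and had a match. The first 4 of them were higher after APAP and the other two were lower.
miR-128-3p: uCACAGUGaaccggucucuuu
miR-652-3p: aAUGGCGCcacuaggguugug
miR-23a-3p: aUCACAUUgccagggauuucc
miR-223-3p: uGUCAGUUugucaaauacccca
miR-3470b: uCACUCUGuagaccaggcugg
miR-148a-5p: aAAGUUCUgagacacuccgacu
These 12 sequences carry 12 different seeds.

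After APAP, 5 of the 341 tested miRNAs rose (1.47%) and 0 fell (0%), by the quasi-likelihood test of edgeR, adjusted by Benjamini and Hochberg's method, at 0.05. The 5 were miR-503-5p, miR-6481, miR-21a-3p, miR-451a and the miR-486a row. The abundant hepatocyte miRNAs, led by miR-122-5p, were not among them, and 4 of the 5 averaged 135 CPM or less after APAP. Adjusted p values are from this test unless limma is named. Levels are given as CPM, a miRNA's reads per 1000000 reads of distinct rows, scaled by TMM factors, which set the bulk of the miRNAs equal between libraries. At an unadjusted p under 0.05, 25 miRNAs were higher (7.33%) and 9 lower (2.64%), and in 32 (9.38%) the 3 APAP libraries all lay above the 3 Control libraries, against 21 (6.16%) that lay below. By sign alone, 168 log2 changes were above 0 (49.3%) and 173 below (50.7%), with a median of -0.02. Scaling by library totals in place of TMM moved that median by 0.22, and the unadjusted counts then became 42 higher and 3 lower.

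Depth differed between the groups. Distinct rows summed to 6329718, 7330927 and 8535099 reads in the Control libraries and to 5300049, 6111847 and 2849257 in the APAP libraries. The groups did not overlap in depth, and the exact two-sided permutation test gave p = 0.1, the smallest that 3 against 3 allows. With every Control and APAP library thinned to 2849257 reads, the same 5 miRNAs passed and 0 others did. miR-122-5p took 19.4%, 32.5% and 22.5% of reads in Control and 24.2%, 23.4% and 23.2% after APAP (exact permutation p = 1, two-sided, with 0.1 the smallest possible). This hepatocyte marker was thus abundant in all 6 libraries. In the root mean square of log2 differences over all tested miRNAs, APAP replicate 2 stood 0.558 to 0.649 from the Control libraries, within or below the range of 0.588 to 0.699 among the Control libraries themselves. APAP replicates 1 and 3 stood at 0.710 to 0.769 and 0.791 to 0.879. Among the libraries that entered the estimate of the spread, dmPGE2+APAP replicate 2 was the shallowest, with 826020 reads. It stood 1.02 to 1.15 from the Control and APAP libraries.

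**Figure D1:**
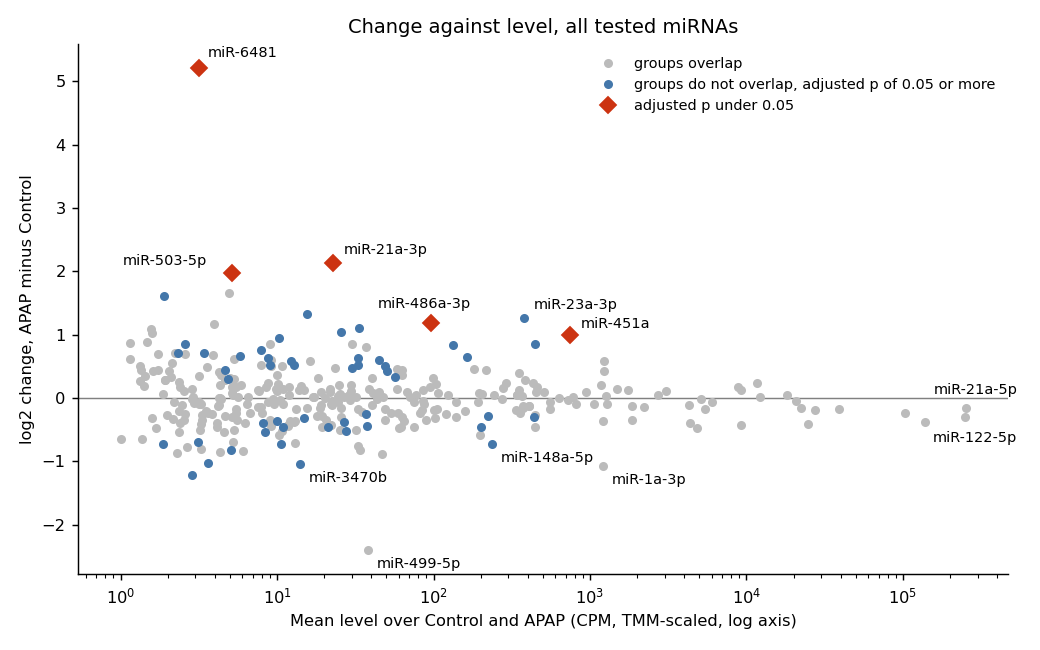
The log2 change of each of the 341 tested miRNAs (vertical axis, APAP minus Control) against its mean level over both groups in CPM (horizontal log axis). Red diamonds are the 5 miRNAs with an adjusted p under 0.05, blue points are miRNAs whose groups did not overlap but did not pass, and grey points are those whose groups overlapped; the 5 called miRNAs all lie above 0 and all below 1000 CPM, and at the right end the most abundant miRNAs lie near 0.

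miR-503-5p, a member of the extended miR-15 and miR-16 family that restrains the cell cycle in many cell types, stood at 2.18, 2.23 and 1.73 CPM in the Control libraries and at 7.03, 6.74 and 10.8 CPM in the APAP libraries. The Control libraries were close together, and every APAP library lay well above them. The mean rose from 2.05 ± 0.277 to 8.19 ± 2.26 CPM (SD, n = 3 each), a log2 change of 1.98 (SE 0.35, adjusted p = 0.0195). These levels rest on few reads: 12, 14 and 15 in Control and 41, 39 and 35 after APAP. The pooled read ratio, scaled for depth, was 4.37 (exact 95% interval 3.03 to 6.40, counting error only). Leaving out any 1 Control library raised its adjusted p past the threshold, to 0.0526 without replicate 1, 0.0770 without replicate 2 and 0.0872 without replicate 3, while the log2 change stayed between 1.66 and 2.44 over all 21 alternatives that tested it.

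The miR-503 hairpin lies at chrX:53053984-53054054 on the minus strand (GRCm38), within the long non-coding RNA gene C430049B03Rik. It is the neighbour of the miR-322, miR-542 and miR-450 hairpins, a group spanning chrX:53047997-53054349. Of the 7 tested miRNAs of that group, 3 were above 0 and 4 below, with a median log2 change of -0.06 and a range from -0.35 to 1.98. miR-503-5p was the one that passed. The mature miRNAs that share the seed AGCAGCA, which are miR-15a, miR-15b, miR-16, miR-195a, miR-322 and miR-497a, numbered 6, and their median was 0.07, with 5 of 6 above 0. miR-503-5p carries AGCAGCG in place of that seed. Among the 6, miR-15b-5p had the largest change, with 28.5, 26.5 and 22.2 CPM in Control and 38.2, 34.1 and 47.8 CPM after APAP. Its groups did not overlap, and its log2 change of 0.63 (SE 0.23) did not pass (adjusted p = 0.340).

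miR-6481, a little-studied miRNA whose hairpin lies at chr3:99199344-99199453 on the minus strand within the span of the Wars2 gene, was at 0, 0 and 0.346 CPM in Control and at 8.40, 4.32 and 5.86 CPM after APAP. In reads these were 0, 0 and 3 against 49, 25 and 19. It had enough reads to be tested only through the libraries of mice given APAP, with or without dmPGE2. A miRNA as scarce in Control could be tested only if it was high there, so the separation of the groups adds no support to the call. The 2 Control libraries without a read allow levels of up to 0.545 and 0.478 CPM (3 reads, on the same TMM scale), so all 3 APAP libraries were above what those libraries could hide. The pooled, depth-scaled read ratio was 48.2 (95% interval 16 to 238). The fitted log2 change was 5.21 (SE 0.96, adjusted p = 0.0195), a value that depends on how the fit treats so few Control reads. miR-6481 lost the threshold without any 1 of Control replicates 1, 2 and 3, of APAP replicates 1 and 3, or of dmPGE2+APAP replicate 2, at adjusted p values of 0.0901, 0.0821, 0.112, 0.101, 0.127 and 0.0583. In the dmPGE2+APAP libraries it stood at 5.97, 31.3 and 42.3 CPM.

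miR-21a-3p, the passenger strand of the miR-21a hairpin, was at 13.6, 9.57 and 2.30 CPM in Control and at 34.5, 28.5 and 47.5 CPM after APAP. The lowest APAP library was more than double the highest Control library. The mean rose from 8.50 ± 5.73 to 36.8 ± 9.71 CPM (SD, n = 3 each), with a log2 change of 2.13 (SE 0.45, adjusted p = 0.0362). Reads were 75, 60 and 20 in Control and 201, 165 and 154 after APAP. The hairpin lies at chr11:86584067-86584158 on the minus strand, within the span of the Vmp1 gene. Leaving out Control replicate 2, or either of APAP replicates 1 and 3, ended the call, at adjusted p values of 0.0869, 0.101 and 0.0957. The call was also lost when the dmPGE2+APAP libraries were left out of the fit (0.0646). It was lost as well with the replicate number as a block (0.0714) and when only miRNAs of at least 10 CPM were tested (0.0728).

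The guide strand of the same hairpin, miR-21a-5p, is among the most abundant miRNAs of these livers and a regulator of tissue repair and fibrosis. It stood at 289956, 271609 and 236673 CPM in Control and at 239854, 286935 and 188318 CPM after APAP. The groups overlapped, and the log2 change of -0.16 (SE 0.20) did not pass (adjusted p = 0.823); scaled by library totals it was 0.05.

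**Figure D2:**
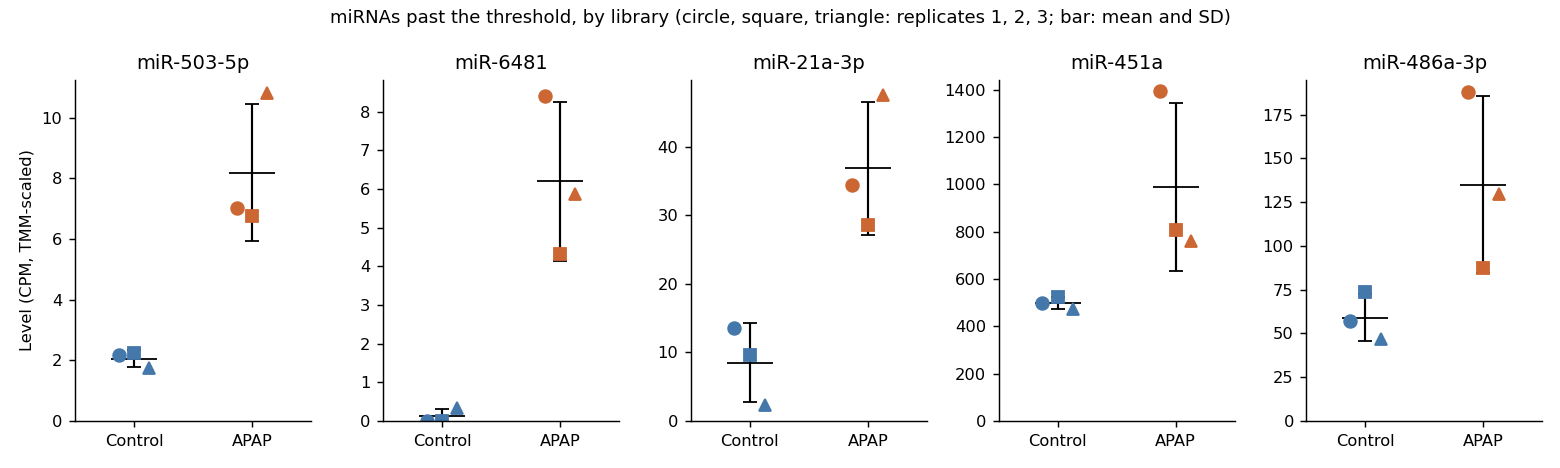
Level of the 5 called miRNAs in each library (vertical axes, TMM-scaled CPM, starting at 0 and scaled separately for each miRNA) in Control and APAP livers; circles, squares and triangles are replicates 1, 2 and 3, and bars are the mean and SD of the 3 libraries. In all 5 miRNAs the lowest APAP library lies above the highest Control library, with the widest relative gap in miR-6481 and the narrowest in miR-486a-3p, where 87.3 CPM in APAP replicate 2 stands against 73.7 CPM in Control replicate 2.

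The ratio of the arms of a hairpin within a library needs no scaling between libraries, so it was tested as well. The miR-21a-3p reads enter both this ratio and the test of their level, so these tests are not independent. The log2 ratio of miR-21a-5p over miR-21a-3p reads was 14.37, 14.78 and 16.61 in Control and 12.76, 13.29 and 11.95 after APAP. Every APAP library was lower than every Control library. The change was -2.59 (SE 0.48, limma adjusted p = 0.00494 over 85 hairpins), and the share of the hairpin's reads that were 3p rose from 0.00306% ± 0.00190 to 0.0165% ± 0.00786 (SD, n = 3 each). miR-21a was the only 1 of the 85 hairpins to pass (1.18%). The groups did not overlap in 14 hairpins (16.5%), and 10 had an unadjusted p under 0.05 (11.8%). The miR-21a call was lost without Control replicate 2 (adjusted p = 0.0562) or APAP replicate 3 (0.0933).

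The miR-503 hairpin was next, and did not pass. Its log2 ratio of 5p over 3p was 0.00, -0.35 and -1.39 in Control and 0.59, 1.91 and 1.76 after APAP. The arms were thus read about equally or with 3p ahead in Control, and with 5p ahead in all 3 APAP libraries. The change was 2.0 (SE 0.55, limma adjusted p = 0.0734). miR-503-3p itself had 12, 18 and 40 reads in Control and 27, 10 and 10 after APAP, with a log2 change in level of -0.06 (SE 0.44).

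The next 3 hairpins followed without passing. miR-362 had a change of -1.97 in the log2 ratio of 5p over 3p (SE 0.69, limma adjusted p = 0.273), and its 5p arm had 22, 29 and 54 reads in Control and 17, 18 and 3 after APAP. In let-7d the ratio was 1.67, 1.74 and 1.40 in Control and 0.91, 1.21 and 0.37 after APAP, a change of -0.78 (SE 0.28, limma adjusted p = 0.273), with the scarcer 3p arm at 109.0, 142 and 132 CPM against 206, 156 and 239.7 CPM. miR-330 had a change of 1.24 (SE 0.50, limma adjusted p = 0.335), with its 5p arm at a log2 change in level of 0.94 and its 3p arm at -0.27. Over all 85 hairpins the arm that was scarcer in Control gained on the other in 47 and lost in 38, with a median change of 0.07. The arm was chosen from the Control values that also entered the change, so these counts cannot show a shift towards it.

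**Figure D3:**
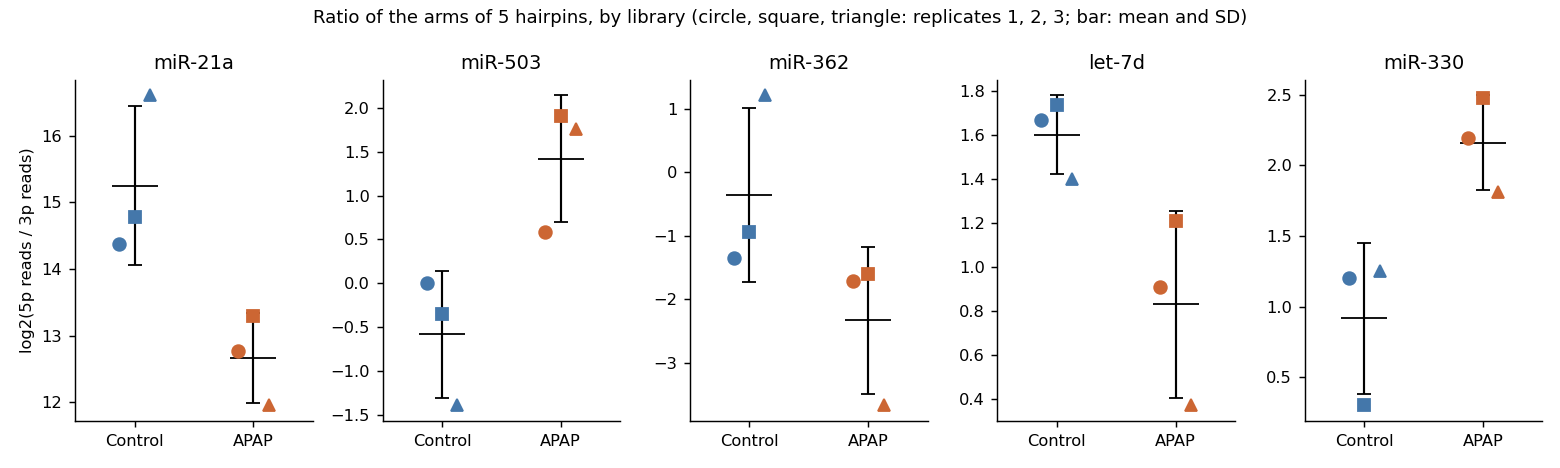
The log2 ratio of 5p reads over 3p reads (vertical axes, scaled separately) in each Control and APAP library for the 5 hairpins with the lowest p values; circles, squares and triangles are replicates 1, 2 and 3, and bars are the mean and SD. The groups do not overlap in any of the 5; miR-21a, from 14.37 to 16.61 in Control and from 11.95 to 13.29 after APAP, is the one that passed the test.

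miR-451a, the dominant miRNA of red cells and their precursors, stood at 497, 524 and 475 CPM in Control and at 1396, 807 and 761 CPM after APAP. The 3 Control libraries agree closely, and APAP replicate 1 was far above the other two APAP libraries. The mean rose from 499 ± 24.5 to 988 ± 354 CPM (SD, n = 3 each), with a log2 change of 0.99 (SE 0.23, adjusted p = 0.0488). Its hairpin lies at chr11:78073170-78073241 on the plus strand, beside that of miR-144 at chr11:78073005-78073070. In bulk tissue, more cells of a type and more RNA per cell cannot be told apart.

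The row of miR-486a-3p stands also for miR-486a-5p and miR-486b-3p, whose counts were nearly the same, so the arm cannot be told from this table. miR-486 is likewise abundant in red cells. It stood at 56.8, 73.7 and 46.8 CPM in Control and at 188, 87.3 and 129.9 CPM after APAP. The groups did not overlap, and the mean rose from 59.1 ± 13.6 to 135 ± 50.5 CPM (SD, n = 3 each), a log2 change of 1.19 (SE 0.28, adjusted p = 0.0488).

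The calls of miR-451a and miR-486a-3p each held in 8 of 22 alternatives. Both were lost without Control replicate 1, 2 or 3 or APAP replicate 1, and the log2 changes without APAP replicate 1 were 0.65 and 0.87, both with an adjusted p of 0.392. Without APAP replicate 3, miR-486a-3p was lost (0.0951) and miR-451a was kept. Both were also lost when no rows were merged (0.0571).

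Of the 4 distinct red-cell miRNAs tested, all 4 were above 0, with a median log2 change of 1.09 against -0.02 for all tested miRNAs. Of the 4, 2 passed the test, against 1.47% of all tested miRNAs, and 3 lay above Control without overlap, against 9.38%. miR-451a and both arms of miR-144 come from neighbouring hairpins, so the 4 members are not independent. The summed level of the list was 585, 640 and 539 CPM in Control and 1666, 941 and 945 CPM after APAP. miR-144-3p was at 13.6, 10.8 and 2.30 CPM against 25.2, 15.2 and 25.9 CPM, a log2 change of 1.33 (SE 0.52) that did not pass (adjusted p = 0.348). miR-144-5p, at 17.4, 31.7 and 15.3 CPM against 57.1, 31.5 and 28.1 CPM, had overlapping groups and a log2 change of 0.86 (SE 0.33, adjusted p = 0.348). The part of blood content in the other results was not tested.

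The 4 myeloid miRNAs were also all above 0, against 49.3% of all tested miRNAs, with a median log2 change of 0.62. None passed the adjusted test, against 1.47% higher of all tested miRNAs. At an unadjusted p under 0.05, 2 were higher, against 7.33%, and 2 lay above Control without overlap, against 9.38%. miR-223-3p, which marks neutrophils and other granulocytes, was at 17.3, 12.6 and 19.7 CPM in Control and at 41.5, 24 and 37.6 CPM after APAP. The groups did not overlap, and the log2 change of 1.05 (SE 0.32) did not pass (adjusted p = 0.150), though it did with DESeq2. miR-223-5p, from the same hairpin, had a log2 change of 0.76 (SE 0.32, adjusted p = 0.391). The haematopoietic miR-142a-5p overlapped between groups, at 233, 198 and 117 CPM against 251, 165 and 332 CPM. The summed level of the myeloid list, 288, 231 and 155 CPM in Control and 329, 223 and 411 CPM after APAP, overlapped as well.

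Most other cell type lists had medians nearer to 0. Of the 13 tested liver-enriched miRNAs 3 were above 0 and 10 below, with a median log2 change of -0.18, which was 0.01 when scaled by library totals. In either direction 0 passed, against 1.47% higher and 0% lower of all tested miRNAs. At an unadjusted p under 0.05, 2 of the 13 were lower, against 2.64% of all tested. Below Control without overlap lay 1, against 6.16%. miR-122-5p had a log2 change of -0.30 (SE 0.22, adjusted p = 0.643). Without Control replicate 2, whose miR-122-5p level was the highest, this change was 0.00. miR-192-5p and miR-148a-3p, both abundant in hepatocytes, had log2 changes of -0.24 and -0.38 (adjusted p = 0.726 and 0.543).

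Markers of the vessels, stroma, ducts and lymphocytes had medians near that of all miRNAs. The endothelial list had a median log2 change of 0.12 over 5 tested miRNAs, of which 3 were above 0 and 2 below. Its changes ran from -0.47, for miR-10a-5p, to 0.45. In this list 1 member lay below Control without overlap, against 6.16% of all tested miRNAs. Its main marker miR-126a-3p was at 9879, 8306 and 8473 CPM in Control and 9986, 8853 and 10198 CPM after APAP. The mesenchymal list, led by miR-143-3p, had a median of 0.02 over 9. The epithelial list, led by miR-200a-3p and miR-200b-3p, had a median of 0.07 over 9. The lymphoid pair miR-150-5p and miR-342-3p had log2 changes of 0.10 and -0.36, and miR-150-5p was at 2.36 CPM in Control replicate 1 against 24.2 and 28.7 CPM in the other two Control libraries.

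Muscle miRNAs varied widely among the Control libraries. Of 4 tested, 1 was above 0 and 3 below, with a median log2 change of -0.91, which was -0.18 without Control replicate 1. Their summed level was 3342, 1275 and 603 CPM in Control and 375, 1140 and 925 CPM after APAP. miR-499-5p, which is encoded in a myosin gene of slow and cardiac muscle, was at 125, 49.6 and 15.9 CPM in Control and at 4.63, 16.9 and 14.8 CPM after APAP, a log2 change of -2.40 (SE 0.86) that did not pass (adjusted p = 0.348). miR-1a-3p, the most abundant of muscle, was at 3149, 1185 and 566 CPM against 354, 1096 and 870.5 CPM. In both, Control replicate 1 was far above every other library. The myosin-gene miRNAs miR-208a-3p and miR-208b-3p had too few reads to be tested.

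**Figure D4:**
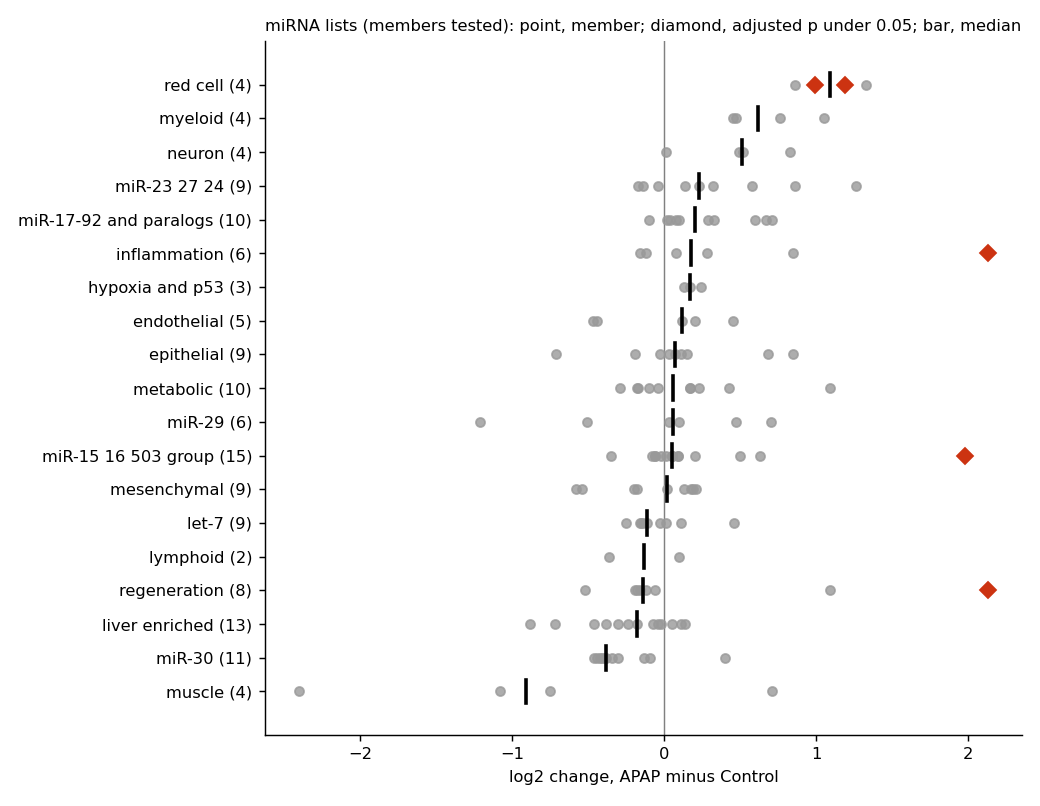
The log2 change (horizontal axis, APAP minus Control) of every tested member of 19 miRNA lists, 1 list per line with the number of tested members in brackets. Points are members, red diamonds are members with an adjusted p under 0.05, and black bars are list medians; the red-cell list has the highest median at 1.09 and the muscle list the lowest at -0.91, and miR-21a-3p appears in both the inflammation and the regeneration list.

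Among lists of responses and families, the medians were closer to 0. The inflammation list had 6 tested members with a median log2 change of 0.18, and miR-21a-3p was the 1 that passed, against 1.47% of all tested miRNAs. miR-155-5p and miR-146a-5p, both induced by NF-kB in activated immune cells, had changes of 0.28 and -0.12 (adjusted p = 0.837 and 0.918). miR-132-3p, at 5.63, 6.86 and 6.45 CPM in Control, was at 13.9 and 17.0 CPM in APAP replicates 1 and 3 but at 3.98 CPM in replicate 2, a log2 change of 0.85 (SE 0.44, adjusted p = 0.543). The hypoxia and p53 list had 3 tested members with changes from 0.13 to 0.24, and miR-34a-5p, a direct target of p53, was at 10.7, 11.8 and 11.1 CPM against 14.6, 11.6 and 11.4 CPM.

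miRNAs tied to cell division and liver regeneration were split. The miR-17-92 cluster and its paralogues, which promote proliferation, had 9 of 10 tested members above 0, against 49.3% of all tested miRNAs. Their median log2 change was 0.20. Above Control without overlap lay 4 of them, against 9.38%, but none passed, against 1.47% higher of all tested miRNAs. The regeneration list had 2 members above 0 and 6 below, with a median of -0.14, which was 0.04 when scaled by library totals. In this list miR-21a-3p was the 1 member that passed, higher, against 1.47% of all tested miRNAs. Another member, miR-221-5p, was at 29.8, 32.8 and 35.5 CPM in Control and 19.5, 28.0 and 21.0 CPM after APAP, a log2 change of -0.52 (SE 0.24, adjusted p = 0.475).

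The miR-23, miR-27 and miR-24 miRNAs come from a cluster on chromosome 8 and another on chromosome 13, and act on vessels and lipid metabolism. Of their 9 tested members 6 were above 0, with a median log2 change of 0.23. miR-23a-3p was at 219, 161 and 291.5 CPM in Control and at 643, 336 and 629.6 CPM after APAP. The groups did not overlap, and the log2 change of 1.26 (SE 0.35) did not pass (adjusted p = 0.112). It passed in 5 of 22 alternatives, which were no filter, DESeq2, Control and APAP alone, and leaving out APAP replicate 2 or dmPGE2+APAP replicate 1. miR-23b-3p, from the other cluster, was at 302, 266 and 375 CPM against 614, 433 and 669 CPM, with a log2 change of 0.86 (SE 0.27, adjusted p = 0.187). miR-27a-3p, whose hairpin neighbours that of miR-23a, had a log2 change of 0.58 and overlapping groups.

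The miR-30 list held the arms of miR-30a to miR-30e, which are abundant in hepatocytes and other epithelial cells. It had 10 of 11 tested members below 0, against 50.7% of all tested miRNAs, and a median log2 change of -0.38. None passed, against 1.47% higher and 0% lower of all tested miRNAs. Below Control without overlap lay 2, against 6.16%, and 1 was lower at an unadjusted p under 0.05, against 2.64%. Its lead, miR-30a-5p, was at 27137, 25062 and 32072 CPM in Control and at 20576, 27007 and 15694 CPM after APAP, a change of -0.41 (SE 0.22, adjusted p = 0.543). APAP replicate 2 lay within the Control range and the other two APAP libraries lay below it. miR-30a-5p, miR-30c-5p and miR-30e-5p share the seed GUAAACA, and of the 12 seed families with at least 3 tested members theirs had the lowest median, -0.39. Scaled by library totals the median of the miR-30 list was -0.16. The member of the list above 0 was miR-30b-5p, with a log2 change of 0.40. miR-30f, which was not in the list, had a log2 change of 0.42 (SE 0.25, adjusted p = 0.567), with 51.0, 28.7 and 50 CPM in Control and 51.4, 51.7 and 71.6 CPM after APAP. The let-7 family had 3 members above 0 and 6 below, with a median of -0.11, which was 0.10 when scaled by library totals. The miR-15, miR-16 and miR-503 list had a median of 0.05 over 15 tested members, the miR-29 family one of 0.06 over 6 and the list of metabolic regulators one of 0.06 over 10.

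Of the single miRNAs of at least 10 CPM that were higher without passing, miR-128-3p had the lowest p. It was at 95.2, 122 and 71.6 CPM in Control and at 149.8, 182 and 179 CPM after APAP, a log2 change of 0.83 (SE 0.22, adjusted p = 0.112), and it passed when scaled by library totals, with log2(TPM + 1) and with DESeq2. miR-128 is best known from neurons, and the neuron list had 4 of 4 tested members above 0 with a median of 0.51, while miR-124-3p, the defining miRNA of neurons, had too few reads to be tested. miR-652-3p was at 19.4, 19.5 and 24.7 CPM against 48.3, 24.9 and 63.9 CPM, a log2 change of 1.10 (SE 0.30, adjusted p = 0.112), and it passed with no filter, with DESeq2 and without APAP replicate 2. APAP replicate 2 was almost level with Control replicate 3 in miR-652-3p. miR-330-5p, at 7.63, 4.94 and 8.30 CPM against 12, 11.9 and 16.7 CPM, had a log2 change of 0.94 (SE 0.31, adjusted p = 0.200).

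Of the miRNAs that were lower, none passed. miR-3470b had the lowest p of those of at least 10 CPM, at 19.4, 14.5 and 22.4 CPM in Control and 9.94, 7.61 and 9.87 CPM after APAP, a log2 change of -1.04 (SE 0.29, adjusted p = 0.112). miR-148a-5p, the passenger strand of a hairpin whose 3p arm is among the most abundant of liver, was at 338, 226 and 318 CPM against 173, 200.3 and 163 CPM. Its groups did not overlap, and its log2 change was -0.72 (SE 0.21, adjusted p = 0.131). Both passed with DESeq2, which called 9 higher and 2 lower.

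Other lower miRNAs of at least 10 CPM had higher p values. miR-30c-2-3p was at 229, 224 and 242 CPM in Control and 155, 198 and 151 CPM after APAP, a log2 change of -0.46 (SE 0.19, adjusted p = 0.365), with no overlap. miR-365-3p, at 40.5, 54.1 and 87.7 CPM against 32.9, 46.9 and 18.8 CPM, overlapped and had a change of -0.88 (SE 0.35, adjusted p = 0.357). miR-127-3p, from an imprinted cluster on chromosome 12, had a change of -0.82 with overlap, and miR-152-5p, of the miR-148 family, a change of -0.72 without overlap (adjusted p = 0.391 and 0.475). miR-145a-5p and miR-194-2-3p had changes of -0.58 and -0.51 with overlapping groups.

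The groups overlapped in every abundant miRNA. Of the 36 tested miRNAs with a mean of at least 1000 CPM, 0 had groups without overlap. Over all tested miRNAs, 9.38% lay above Control without overlap and 6.16% below. The median log2 change of the 36 was -0.10, between -1.08 for miR-1a-3p and 0.58 for miR-27a-3p. The 10 most abundant together took 88.1% ± 1.00 of reads in Control and 86.4% ± 1.00 after APAP (SD, n = 3 each; exact permutation p = 0.2, two-sided). The number of miRNAs with at least 10 reads was 335 ± 9.54 against 317 ± 17.2 (exact permutation p = 0.3). At equal depth the difference turned round, to 13.7 more after APAP (exact permutation p = 0.1, the smallest possible).

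**Figure D5:**
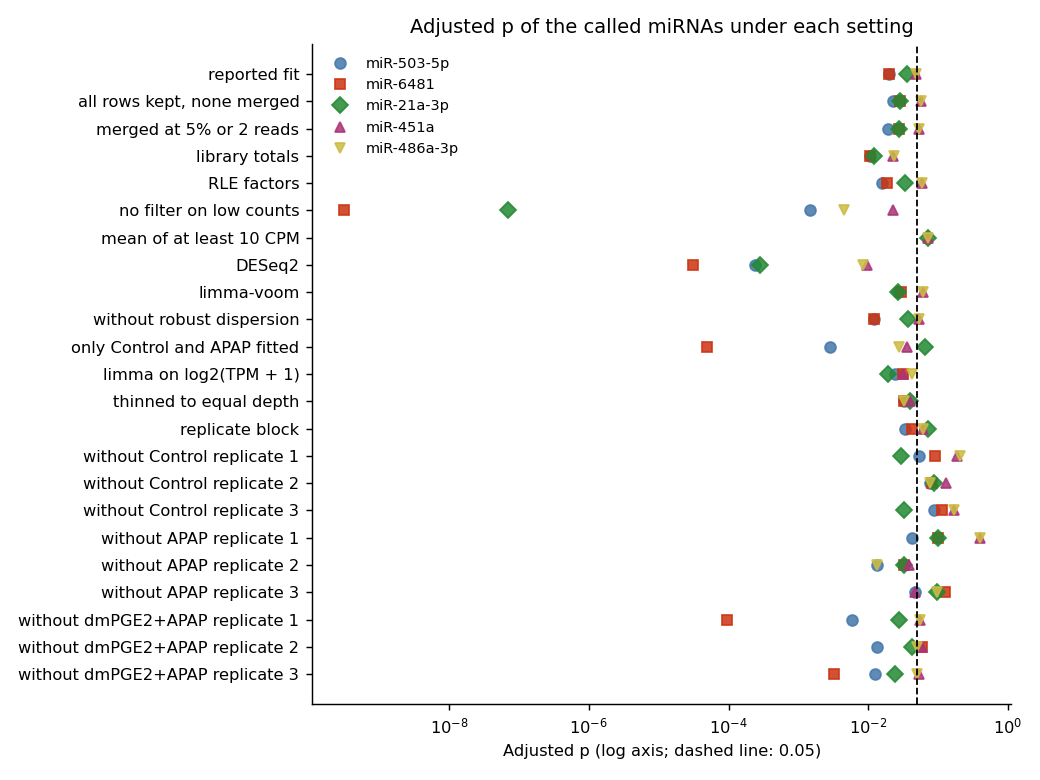
Adjusted p (horizontal log axis, dashed line at 0.05) of the 5 called miRNAs in the reported fit and under each alternative that tested them, 1 setting per line. miR-503-5p lies left of the line in 18 of 21 alternatives, miR-21a-3p in 16 of 22, miR-6481 in 15 of 21, and miR-451a and miR-486a-3p in 8 of 22 each.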

How the data were processed

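Small RNA libraries were made from total RNA of liver, per the labels' protocols. The authors deposited 1 table with, for each miRNA and library, a read count and a TPM value; Bowtie and the mm10 build are named in the submitters' processing notes. The counting tool, annotation and use of strand are unstated, that is, not given in the sources used here. Deposited counts were whole numbers, and the deposited TPM values summed to about 1000000 in each library. Columns named BC were taken as the Control libraries, because the other columns carry the names of their own groups; 0 value columns were left unused.

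Rows were merged where in each library their counts lay within 10% or 5 reads of each other, log2 counts correlated above 0.99 and at least 100 reads were present; the row with most reads was kept, and 16 rows were merged away. Tests used edgeR 4.0.16 in R 4.3.3 (TMM factors, filterByExpr with minimum counts of 10 and 15, robust quasi-likelihood fit over all 9 libraries, Benjamini-Hochberg at 0.05). Arm ratios used limma 3.58.1 on log2((5p + 0.5)/(3p + 0.5)) for hairpins with a mean of at least 10 reads in each arm. Single values per library were compared by two-sided exact permutation tests. The edgeR test of levels and the limma test of arm ratios were run on simulated data, in which every miRNA had the same spread. The other statistics were not simulated. Alternatives covered merging, scaling, filtering, DESeq2 1.42.0, limma-voom, the TPM values (log2(TPM + 1)), equal depth and leaving out each library.

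Named miRNAs are those past the threshold, the 10 higher and 10 lower of lowest p at 10 CPM or more, the 10 most abundant, called or most abundant members of the 19 lists, the 5 hairpins of lowest p, and members of the 3 seed families and genomic clusters with medians farthest from 0 in each direction; miR-30b-5p, miR-30f, miR-155-5p, miR-146a-5p, miR-124-3p, miR-208a-3p and miR-208b-3p were named after their values were seen. The members and lists were chosen with earlier results of these data known. The labels do not say whether equal replicate numbers share a litter, batch or day, so the reported fit did not pair the samples. Log2 changes are APAP minus Control, and intervals cover counting error only.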

Additional observations from a re-analysis of the deposited data

How the results depend on the processing

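The number of higher miRNAs, 5 as reported, was 3 with no rows merged, with rows merged at 5% or 2 reads, with RLE factors, with limma-voom and without robust dispersion; 9 with no filter on low counts and 9 with DESeq2; and 0 among miRNAs of at least 10 CPM, where an unadjusted p under 0.05 was reached by 18 higher and 7 lower miRNAs and DESeq2 was not run. Leaving out 1 library gave 0 (without Control replicate 2) to 7 (without APAP replicate 2), with 1 without Control replicate 1, Control replicate 3 or APAP replicate 1 and 2 without APAP replicate 3. Of lower miRNAs, 0 as reported, DESeq2 called 2. Same-numbered Control and APAP libraries had correlations of deviations of -0.108, 0.00581 and -0.0975, and with the replicate number as a block 2 were higher, miR-503-5p and miR-6481. Hairpins with a higher 5p to 3p ratio numbered 0, and 1 with a prior count of 2, with Control and APAP alone fitted or without the trend (0 to 1 leaving out a library); hairpins with a lower ratio numbered 1, and 2 with Control and APAP alone or without the trend (0 to 1). Some log2 changes changed sign under an alternative. With library totals and with log2(TPM + 1), in that order, they were 0.05 and 0.05 for miR-21a-5p, 0.04 and 0.05 for miR-143-3p, 0.03 and 0.04 for miR-26a-5p, 0.04 and 0.06 for let-7f-5p, 0.19 and 0.21 for miR-22-3p, 0.08 and 0.11 for miR-181a-5p, 0.14 and 0.12 for miR-503-3p and 0.07 and 0.09 for let-7d-5p; miR-200b-3p was at 0.10 with log2(TPM + 1). With no filter they were -0.01 for miR-101b-3p, -0.04 for miR-200a-3p, -0.04 for let-7g-5p, -0.02 for miR-29a-3p and -0.02 for miR-92a-3p. With no rows merged let-7g-5p was at -0.03 and miR-29a-3p at -0.00, let-7g-5p was at -0.02 with rows merged at 5%, and miR-34a-5p was at -0.02 at equal depth. Leaving out 1 library, the log2 change ranged from -0.42 to 0.00 for miR-122-5p, -0.39 to 0.00 for miR-143-3p, -0.19 to 0.10 for miR-22-3p, -0.14 to 0.27 for miR-101b-3p, -0.39 to 0.55 for miR-150-5p, -0.12 to 0.30 for miR-199a-3p, -0.12 to 0.36 for miR-200a-3p, -0.35 to 0.20 for miR-200b-3p, -0.09 to 0.35 for miR-93-5p, -0.10 to 0.12 for let-7g-5p, -0.07 to 0.12 for miR-29a-3p, -0.06 to 0.14 for miR-92a-3p, -0.06 to 0.72 for let-7a-1-3p, -0.51 to 0.32 for miR-503-3p and -0.23 to 0.01 for let-7d-5p. The difference in the number of miRNAs with at least 10 reads, -18.3, was 13.7 at equal depth. Leaving out 1 library, the difference in the miR-122-5p share ranged from -3.93 to 2.64 percentage points and that in the miR-21a-5p share from -0.263 to 2.60. The causes were not tested. The log2 changes of the 5 called miRNAs were above 0 in every alternative that tested them. miR-503-5p and miR-6481 rest on at most 49 reads in any Control or APAP library.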

Other observations

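Neighbouring hairpins were compared over the 20 genomic clusters (neighbours within 10 kb on 1 strand) that had at least 3 tested miRNAs. The median log2 change was above 0 in 8 and below 0 in 12. The cluster of miR-144 and miR-451a on chromosome 11 had the highest median, 0.99, followed by miR-132 with miR-212 and by miR-23a with miR-27a and miR-24-2, both at 0.45. The lowest medians were those of miR-29b-2 with miR-29c (-0.51), miR-30c-1 with miR-30e (-0.39) and miR-194-2 with miR-192 (-0.30). In the first of these the arms of 1 hairpin differed in sign: miR-29c-5p had a log2 change of -0.51 and miR-29c-3p one of 0.10, and neither passed.

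By seed, 7 of 12 families had a median above 0. The highest was that of UAUACAA, shared by the 3p arms of let-7a-1, let-7b and let-7f-1, at 0.32, while the 5p arms of let-7, with the seed GAGGUAG, had a median of -0.11. Of the 25 miRNAs higher at an unadjusted p under 0.05, 22 had a sequence, and 7 of these (31.8%) began with U, against 129 of 291 (44.3%) of all tested miRNAs with a sequence; the median GC content was 47.6% and 45.8%. Among the untested rows, 91 had reads in APAP libraries but none in Control, with at most 8 reads each. Another 130 had reads in Control but none after APAP, with at most 11, and 40 had none in either. The Control libraries were deeper, and these counts were not corrected for depth.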
